A study of Mus musculus with 2 samples.

Results

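Coding genes of the mouse fall into those whose promoter lies in a CpG-rich stretch and those whose promoter is CpG-poor, and the promoters described here are the CpG-poor ones that were open in adult cerebellum. A start was CpG-poor where the ratio of observed to expected CpG dinucleotides was under 0.35 in the 500 bp on each side of the outermost annotated start of a GENCODE protein-coding gene. It was a member where a peak of the shorter of the authors' 2 peak lists overlapped that window in both libraries. Of 21938 coding starts, 8067 were CpG-poor, and 388 of these, 4.81%, were members. The same window held a peak in both libraries at 10472 of 13871 CpG-rich starts (75.5%) and at 49.5% of all coding starts. The members were thus chosen by measured peak calls and by the CpG ratio, and the signal and footprints come from the same cuts, so all values below are descriptions with no test.

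DNase-seq cuts open chromatin in isolated nuclei with the enzyme DNase I and sequences the cut ends. The tissue was whole cerebellum of male B6CASTF1/J mice aged 8 to 10 months, a cross between B6 and CAST, with no treatment. The 2 libraries are biological replicates of 1 group, and each was made from its own pool of 2 cerebellum biosamples. The labels do not say whether the pools share animals, so the spread between them may be partly technical. All cell types of the tissue were lysed together, so few cells of a type and weak opening in each of its cells cannot be told apart.

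Most CpG dinucleotides of mammalian genomes are methylated, and methylated cytosine mutates readily, so CpG has become rare outside CpG islands. Islands stay unmethylated, hold the promoters of genes used in many cell types, and are bound by widely expressed factors. CpG-poor promoters more often belong to genes used in 1 tissue or 1 cell type, and the classical ones carry a TATA box upstream of a sharply defined start. A DNase footprint is a short stretch inside open chromatin that is cut less than its surroundings, as happens where a protein covers the DNA. In the cerebellum the small granule cells outnumber all other neurons, and large Purkinje cells, interneurons, Bergmann glia and other astrocytes, oligodendrocytes, microglia and vessels make up the rest.

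The sequences of 10 members show which bases were called as footprints at these promoters. The first 4 are those of highest signal among the members that hold a shared footprint in the printed window, 5 are the highest of the gene lists described below, and Gabra6 was added after its values were seen because it is the defining granule cell gene. Each runs 5′ to 3′ on the gene's strand from 200 bases before the start to the first 20 bases of the outermost transcript, in GRCm38 (mm10). Capitals mark bases that lay in a footprint of both libraries. Whether a protein covered them was not tested, and some lie in simple repeats, as in the TG repeat of Cbln3 and the run of C at Sv2a. Letters are from the RefSeq copy of the reference genome, which follows the B6 strain, and CAST letters were not read.
Tldc1 (chr8:119778397-119778616, minus strand): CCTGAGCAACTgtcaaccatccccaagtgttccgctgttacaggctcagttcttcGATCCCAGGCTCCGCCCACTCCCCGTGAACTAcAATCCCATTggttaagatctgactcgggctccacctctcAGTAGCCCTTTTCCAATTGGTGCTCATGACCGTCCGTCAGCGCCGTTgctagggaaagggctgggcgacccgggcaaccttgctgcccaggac
Cbln3 (chr14:55884373-55884592, minus strand): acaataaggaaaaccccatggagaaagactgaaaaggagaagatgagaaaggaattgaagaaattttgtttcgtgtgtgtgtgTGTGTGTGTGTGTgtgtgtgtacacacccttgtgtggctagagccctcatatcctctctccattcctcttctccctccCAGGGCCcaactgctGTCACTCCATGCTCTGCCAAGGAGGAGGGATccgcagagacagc
Ptms (chr6:124920084-124920303, minus strand): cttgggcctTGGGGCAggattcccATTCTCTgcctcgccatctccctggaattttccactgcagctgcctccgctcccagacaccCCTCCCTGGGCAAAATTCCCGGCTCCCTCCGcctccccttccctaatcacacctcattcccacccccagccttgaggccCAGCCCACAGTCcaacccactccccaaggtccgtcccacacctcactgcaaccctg
Gm20449 (chr7:41499398-41499617, minus strand): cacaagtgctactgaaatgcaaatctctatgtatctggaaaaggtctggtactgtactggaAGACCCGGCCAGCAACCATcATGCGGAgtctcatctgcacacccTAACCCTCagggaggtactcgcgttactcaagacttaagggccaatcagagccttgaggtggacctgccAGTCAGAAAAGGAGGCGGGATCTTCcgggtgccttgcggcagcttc
Kcnj9 (chr1:172329299-172329518, minus strand): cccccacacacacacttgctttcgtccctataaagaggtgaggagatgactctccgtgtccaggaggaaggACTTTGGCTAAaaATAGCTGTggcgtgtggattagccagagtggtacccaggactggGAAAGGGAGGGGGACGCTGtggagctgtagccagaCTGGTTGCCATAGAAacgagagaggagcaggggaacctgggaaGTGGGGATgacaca
Aldoc (chr11:78322768-78322987, plus strand): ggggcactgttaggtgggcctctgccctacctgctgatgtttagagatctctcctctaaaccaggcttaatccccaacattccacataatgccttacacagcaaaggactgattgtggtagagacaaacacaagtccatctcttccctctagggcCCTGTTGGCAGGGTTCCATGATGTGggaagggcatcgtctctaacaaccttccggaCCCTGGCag
Sftpc (chr14:70524062-70524281, minus strand): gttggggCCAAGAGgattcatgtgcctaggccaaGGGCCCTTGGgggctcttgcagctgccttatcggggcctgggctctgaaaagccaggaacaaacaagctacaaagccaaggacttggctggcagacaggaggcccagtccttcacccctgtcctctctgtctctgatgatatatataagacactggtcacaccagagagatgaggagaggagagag
Sv2a (chr3:96180951-96181170, plus strand): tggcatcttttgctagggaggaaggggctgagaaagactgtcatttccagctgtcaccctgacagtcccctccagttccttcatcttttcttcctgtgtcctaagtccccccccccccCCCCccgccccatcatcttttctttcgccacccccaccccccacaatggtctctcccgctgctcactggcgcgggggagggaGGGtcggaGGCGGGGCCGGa
Pcp4 (chr16:96467406-96467625, plus strand): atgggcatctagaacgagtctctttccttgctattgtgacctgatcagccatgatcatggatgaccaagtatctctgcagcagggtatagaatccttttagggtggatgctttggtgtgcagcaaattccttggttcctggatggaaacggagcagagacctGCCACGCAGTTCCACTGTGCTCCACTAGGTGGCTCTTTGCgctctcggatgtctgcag
Gabra6 (chr11:42321053-42321272, minus strand): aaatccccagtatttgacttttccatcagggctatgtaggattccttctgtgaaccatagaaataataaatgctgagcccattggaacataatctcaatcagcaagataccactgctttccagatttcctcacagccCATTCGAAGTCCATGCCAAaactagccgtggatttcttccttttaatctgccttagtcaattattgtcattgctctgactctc

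Few short motifs recurred in these footprint bases. At Gabra6 the only shared footprint in the window, of 19 bases, ended in TGCCAA, the reverse complement of TTGGCA, the element of the NFI (nuclear factor I) family, 50 bases before the start. The same letters lay in shared footprints of Cbln3, 10 bases before the start, and of Aldoc, 41 before. At Kcnj9 a match to the MEF2 motif, CTA and TAG with 4 bases between them, stood 122 bases before the start. A match to the RFX X-box, GTTGCC followed after 3 bases by G, any base and AAC, stood 34 bases before it. At Pcp4 a footprint of 40 bases held a loose form of the CTCF motif, CCA, AG and GGC with 2 bases between each, at 17 bases before the start. Tldc1 held CCAAT boxes, an SP/KLF GC box, ACAAT of SOX factors and ACTACAA, part of the ZNF143 motif, and Gm20449 held CCGGAA of ETS factors 4 bases before the start. Each of these matches had at least 50% of its letters in shared footprints, and Ptms, Sftpc and Sv2a had no such match among the 31 motifs searched. The X-box, the loose CTCF motif and ACTACAA were added to the search after these sequences had been seen.

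Open chromatin at CpG-poor coding starts became more common as the CpG ratio approached the cut. A peak in both libraries was found at 0.90% of the 1778 starts with a ratio under 0.1, at 2.18% of 3214 from 0.1 to 0.2, at 6.64% of 2275 from 0.2 to 0.3, and at 18.9% of 800 from 0.3 to 0.35. These intervals held 16, 70, 151 and 151 members. Just under the cut lay Gstp2 (ratio 0.3494) and Mttp (0.3495). Just over it lay Gpr151 (0.3501), Syn3 (0.3503) and Nsg2 (0.3513), which are not members. Signals on both sides of the cut overlapped: 2.65 and 2.02 in replicates 1 and 2 at Gstp2 and 2.11 and 2.16 at Mttp, beside 2.85 and 2.14 at Gpr151, 7.32 and 4.62 at Syn3 and 2.17 and 1.73 at Nsg2.

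**Figure D1:**
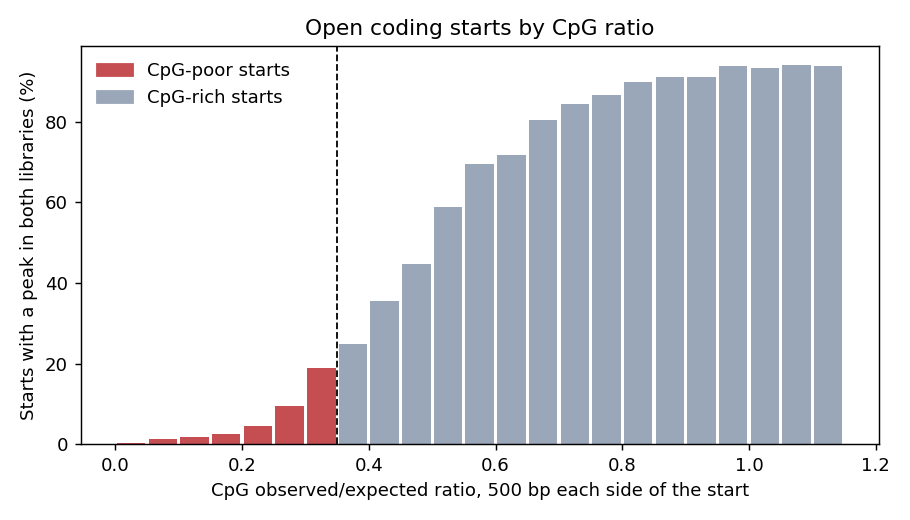
Percent of coding starts with a peak within 500 bp in both libraries, by CpG ratio in steps of 0.05, with the cut at 0.35 as a dashed line. The share was 18.9% in the last CpG-poor step and 24.9% in the first CpG-rich step, and at least 91.1% in each step above a ratio of 0.85.

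A further 225 CpG-poor starts had a peak in 1 library, 90 in replicate 1 alone and 135 in replicate 2 alone, and 7454 had none in either. The order was the other way at CpG-rich starts, with 517 in replicate 1 alone and 149 in replicate 2 alone. The CpG-poor peaks seen in 1 library were weak, with a median signal of 0.835 in replicate 1 and 0.544 in replicate 2, and 50 of the 90 and 71 of the 135 had a peak of the authors' longer list in the other library. Whether depth or the pooled animals bear on this was not tested.

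Members lay between the other CpG-poor starts and the open CpG-rich ones in base composition. Their windows held a median of 18 CpG, against 8 at CpG-poor starts without a peak and 66 at CpG-rich starts with a peak in both libraries. GC content was 51.6% at members, 44.96% at CpG-poor starts without a peak and 59.7% at open CpG-rich starts. Repeats covered a median of 10.8%, 14.5% and 7.09% of the windows in the same order. The strongest peak itself had a CpG ratio of 0.326 in replicate 1 and 0.306 in replicate 2 (medians), against 0.849 and 0.833 at open CpG-rich starts. It reached 0.35 or more in 171 (44.1%) and 151 (38.9%) members. The ratio of the peak was above that of its own window at 65.2% and 62.4% of members, against 75.4% and 71.2% of open CpG-rich starts.

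Signal of a start was that of its strongest overlapping peak, on the authors' scale, which the sources used here do not define. Among members the median was 1.76 in replicate 1 and 1.54 in replicate 2, against 5.22 and 3.55 at open CpG-rich starts. Members spanned 0.286 to 14.2 in replicate 1 and 0.190 to 10.2 in replicate 2. The median member stood at percentile 59.1 and 68.0 of all peaks of its library, and the median open CpG-rich start at 88.6 and 88.1. A signal over 5 was found at 31 members (7.99%) in replicate 1 and 23 (5.93%) in replicate 2, against 52.3% and 32.8% of open CpG-rich starts. Within the members the CpG ratio and the mean log2 signal were nearly unrelated (Spearman's rho 0.10 across 388 starts, which are not independent replicates).

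The highest member promoters belonged to genes of varied roles, and several of these genes also have a CpG-rich start, as given below. Tef, a PAR bZIP factor that follows the daily clock, had 13.8 in replicate 1 and 9.56 in replicate 2, at percentiles 99.3 and 98.9. Tldc1, a TLD domain protein, had 14.2 and 9.26. Cbln3, a cerebellin secreted by granule cells, had 12.2 and 9.99. All 3 stood at percentile 98.7 or higher in both libraries.

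Ptms, the acidic nuclear protein parathymosin, had 10.2 in both libraries. Madd, an activator of the vesicle GTPase Rab3, had 11.8 and 8.70, and Gm20449, a predicted gene, had 10.0 and 10.2. Pold4, a small subunit of DNA polymerase delta, had 10.5 and 7.86. At Ptms and Gm20449 the replicates were all but equal, while at Madd and Pold4 replicate 1 was higher, as at 300 of 388 members.

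Mterf2, a mitochondrial transcription factor, had 8.74 and 9.06. Slc8a2, the sodium/calcium exchanger NCX2 of neurons, had 10.0 and 6.44. Clstn3, the synaptic adhesion protein calsyntenin-3, had 8.27 and 6.46. Serpinb8, an intracellular protease inhibitor, and Thrsp, the thyroid hormone responsive Spot 14 protein, had 7.02 and 6.51, and 5.95 and 7.05. At the other end, Ube2u, Slfn9 and Slc27a6 had 0.2998 and 0.228, 0.307 and 0.209, and 0.328 and 0.190, which put them at percentile 4.45 or lower in both libraries.

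**Figure D2:**
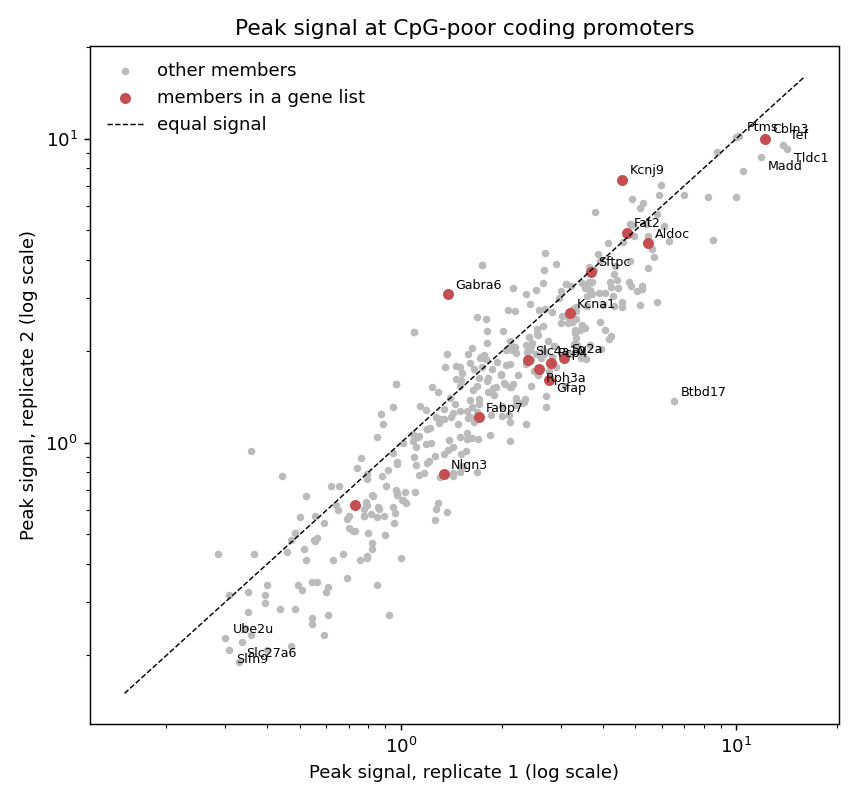
Peak signal of the 388 members in replicate 1 (x, log scale) and replicate 2 (y, log scale), with gene list members in red and equal signal as a dashed line. Most points lie below the line, and Btbd17 and Gabra6 stand farthest from it on opposite sides among the labelled genes.

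The replicates ranked members alike, with a Spearman's rho of 0.92 across 388 starts. The log2 ratio of replicate 1 to replicate 2 had a median of 0.31 and an SD of 0.46 over members, against a median of 0.56 and an SD of 0.32 over open CpG-rich starts. Btbd17 had 6.52 in replicate 1 and 1.37 in replicate 2, a log2 ratio of 2.25. Scara5, a scavenger receptor, had 0.921 and 0.272, and Glipr1l1 had 0.592 and 0.234, ratios of 1.76 and 1.34.

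At 4 members, of which 2 share a peak, the order was turned round most. Cd300ld3 had 0.357 and 0.942 (log2 ratio -1.40), B230118H07Rik and Rag1, at the same peak, had 1.75 and 3.84 (-1.14), and Gabra6, the GABA-A receptor subunit of granule cells, had 1.38 and 3.08 (-1.16). In Gabra6 the called peak was 89 bp wide in replicate 1 and 260 bp in replicate 2. With 1 library per pool, a difference between pools and a difference between libraries cannot be told apart.

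The peaks of members often lay beside the annotated start. The start itself was inside a peak in both libraries at 168 members (43.3%), against 71.0% of open CpG-rich starts. The centre of the strongest peak was within 100 bp of the start at 161 members (41.5%) in replicate 1 and 167 (43.0%) in replicate 2, against 60.9% and 59.8% of open CpG-rich starts. It lay over 200 bp downstream at 26.8% of members in each library, against 12.8% and 11.7%, and over 200 bp upstream at 12.6% and 13.1%, against 7.59% and 8.67%. Madd and Serpinb8 are of the downstream kind, with centres 496 and 374 bp past the start in replicate 1, and Sftpc of the upstream kind, with the centre 280 bp before it in both. Members with the start inside a peak had median signals of 2.19 and 1.90, against 1.57 and 1.29 for the other 220.

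**Figure D3:**
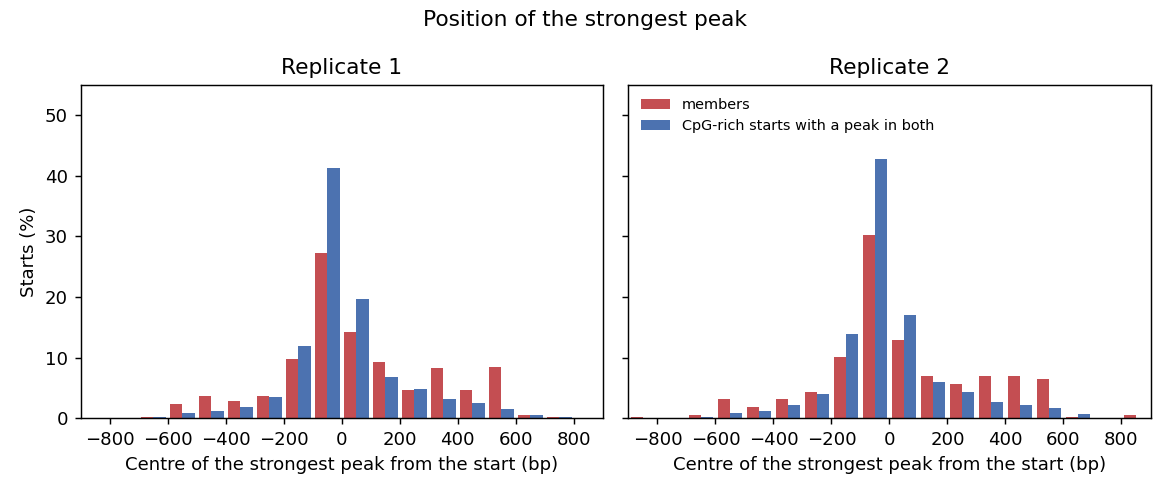
Centre of the strongest peak relative to the start, in steps of 100 bp, as percent of members (red) and of open CpG-rich starts (blue) in each replicate. Both sets were most often centred in the 100 bp before the start, where 27.3% of members and 41.2% of CpG-rich starts lay in replicate 1, and a larger share of members than of CpG-rich starts had peaks centred 300 to 600 bp downstream.

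The outermost start is not always the start that the peak serves. At 44 members a peak overlapping the window in at least 1 library held a CpG-rich start of some transcript, whether or not that peak was the strongest. The CpG-rich start was of the same gene in 38 and of another gene in 8. Cbln3 is counted among these: the start of Khnyn, at a CpG ratio of 0.560, lies 555 bp away on the opposite strand. A peak overlapping the Cbln3 window holds a CpG-rich Khnyn start. The strongest Cbln3 peak spans the Cbln3 start in both libraries, with centres 71.5 and 61.5 bp past it and CpG ratios of 0.124 and 0.104. The Khnyn start 555 bp away lies outside that peak. At Gm20449 a CpG-rich start of AW146154 lies 473 bp away. Slc8a2, Thrsp and Jph4 had a CpG-rich start of their own in a peak overlapping the window. A further 105 genes had a CpG-rich start of their own, but none in such a peak. Of the highest members, Tef with 3 CpG-rich starts of 10, Madd with 10 of 18 and Ptms with 1 of 5 are among the 105. So are the glycolytic enzyme gene Gapdh with 7 CpG-rich starts of 10 and the ribosomal protein gene Rps10 with 7 of 8, both picked after their values were seen. The outermost transcript was not coding at 64 members, Ptms, Madd and Gm20449 among them. In 245 members every annotated start of the gene was CpG-poor. In 107 members all starts were CpG-poor, the start was inside a peak in both libraries, and no other coding start lay within 1 kb. Tldc1, Pold4, Mterf2, Clstn3, Kcnj9, Aldoc, Pcp4, Gabra6 and Fabp7 are among these 107, which had median signals of 2.11 and 1.87. In 6 places 1 peak served 2 members, as at Tmem176a and Tmem176b.

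Cleavage around the start followed the same order of sets in the deposited false discovery rate of the cut rate, which lists bases under 0.05. The start base was listed at 74.2% of members in replicate 1 and 79.9% in replicate 2, against 1.10% and 1.06% of CpG-poor starts without a peak and 97.2% and 97.1% of open CpG-rich starts. The window of 500 bp on each side held a median of 320 bases with a rate under 0.001 in replicate 1 and 402 in replicate 2 at members, against 762 and 786 at open CpG-rich starts. Of the CpG-poor starts without a peak, 3.797% in replicate 1 and 4.159% in replicate 2 had any listed base in that window. In each set the listed stretch leaned downstream. At members 48.5% and 50.8% were listed 500 bp past the start and 20.4% and 27.8% 500 bp before it, against 71.7% and 72.1% past it and 41.8% and 53.5% before it at open CpG-rich starts.

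**Figure D4:**
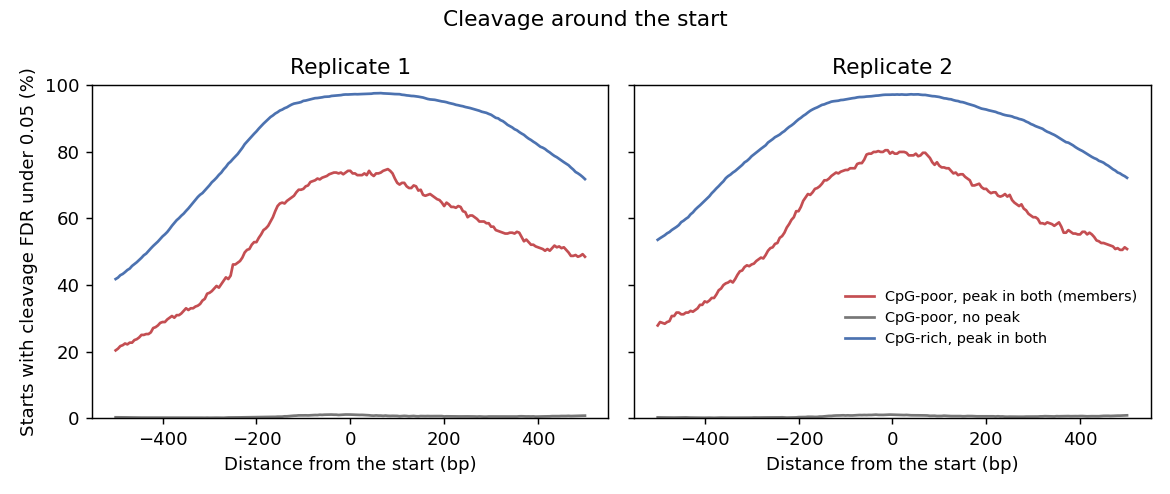
Percent of starts whose base at each distance (x, bp, gene's direction to the right) had a cut rate false discovery rate under 0.05 in replicates 1 and 2. Members (red) peaked at 74.7% and 80.4% near the start, CpG-poor starts without a peak (grey) stayed at 1.11% or lower, and open CpG-rich starts (blue) peaked at 97.5% and 97.2%.

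Most members held footprints that both libraries called. Within 500 bp of the start 330 of 388 members, 85.1% (95% Wilson interval 81.2 to 88.3, counting error only), had a footprint of replicate 1 overlapped by a footprint of replicate 2. The share was 0.429% at CpG-poor starts without a peak and 97.6% at open CpG-rich starts. Members had a median of 4 footprints in each library and 2 shared ones, against 9 and 8 with 6 shared at open CpG-rich starts. Shared footprints became more numerous with signal (Spearman's rho 0.63 across 388 members, where depth at the peak enters both).

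Ptms had the most shared footprints, with 12. Jph4, a junctophilin that ties the plasma membrane to the endoplasmic reticulum in neurons, and Ppfia4, a liprin-alpha of the presynaptic active zone, had 11 each. Their signals differed, with 10.2 in both libraries at Ptms, 3.48 and 2.43 at Jph4, and 2.82 and 1.92 at Ppfia4. At Fat2 and Kcna1 no footprint was shared although both libraries called some.

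The exact letters TATAAA of the TATA box were rare among the members. The letters TATAAA began 40 to 20 bases before the start, on the gene's strand, at 3 members, 0.773% (95% Wilson interval 0.263 to 2.25), against 386 of 7454 CpG-poor starts without a peak (5.18%) and 66 of 10472 open CpG-rich starts (0.630%). Over all coding starts the share was 2.42%, and at CpG-poor starts without a peak that are not olfactory or vomeronasal receptor genes it was 5.78%. The 3 were Crybb1, a lens crystallin gene, and Krt71 and Krtap11-1, a keratin and a keratin-associated protein of hair. In none of them did the start lie inside a peak in both libraries: the strongest peak was centred 225 bp before the start of Crybb1, and 259 and 383 bp past the starts of Krt71 and Krtap11-1 in replicate 1. Among the 168 members with the start inside a peak none had TATAAA there, and a count of 0 allows a share of up to 1.79%. The search was exact: with A or T allowed as the fifth letter the share of members was 1.29%, and with TATAAA from 60 bases before to 10 after the start it was 1.80%. These wider shares are given for members only. The Sftpc promoter printed above holds TATATAA shortly before the start, which the exact search does not count.

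Other motifs were searched on both strands from 250 bases before to 50 after each start. GGGCGG, the GC box of SP and KLF factors, was present at 19.8% of members, against 7.93% of CpG-poor starts without a peak and 67.1% of open CpG-rich starts. CCGGAA, the ETS motif, was present at 11.6%, 3.41% and 29.5% in that order, and AGGGGGC, part of the CTCF motif, at 9.79%, 3.86% and 17.0%. For these 3 motifs, which are rich in C and G, members lay between the other sets.

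CAGCAGG, the core bound by ZIC factors, was present at 17.5% of members, 10.2% of CpG-poor starts without a peak and 9.22% of open CpG-rich starts. It thus stood highest at members, by an amount that was not tested. This was not particular to the ZIC core. CAGCTG, another E-box, was present at 20.6%, 17.8% and 13.4% in that order, and AGGAAG, a second ETS form, at 43.6%, 40.3% and 30.6%. CACCC, a KLF motif, was present at 64.9%, 48.5% and 62.2%. Over all coding starts these 3 gave 15.6%, 34.6% and 58.2%. CAGATG, an E-box used by neuronal bHLH factors, was present at 19.8%, 21.7% and 10.6%, and TTGGCA, the NFI element, at 20.4%, 19.0% and 10.6%. Their shares at members were near those at CpG-poor starts without a peak. All coding starts gave 43.0% for GGGCGG, 17.5% for CCGGAA, 10.1% for CAGCAGG, 15.2% for CAGATG and 13.8% for TTGGCA.

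Within footprints the balance of motifs was again different. Members held 1153 shared footprints with a median length of 20 bases, and open CpG-rich starts 67495 with a median of 21. With 3 bases added on each side, TTGGCA was found in 3.82% of the members' shared footprints, against 1.15% of those at open CpG-rich starts. CAGCAGG was found in 3.04% against 0.751%, CAGATG in 2.78% against 0.567%, and the loose CTCF motif, added after the sequences were seen, in 2.34% against 0.498%. The core AGGGGGC of the same CTCF motif was found in 3.56% against 3.42%, so the forms differed. Higher shares at members were not particular to these motifs. CAGCTG was found in 2.78% against 0.939%, CACCC in 12.1% against 9.23%, and the AP-1 motif TGANTCA, with N any base, in 0.434% (5 footprints) against 0.0607%. GGGCGG was found in 7.11% against 22.4%. CACGTG, an E-box that holds a CpG, was also lower at members, with 0.607% against 1.06%, as was CCGGAA. These shares come from the same reference letters as the base composition of the sets, and how far composition sets them was not tested. NFI and ZIC factors and several neuronal bHLH factors are expressed in granule cells, but a match names no factor. Whether the shares bear on those factors was not tested.

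CpG-poor starts of several, not all, lists of neuronal genes were open in larger shares than those of genes of other organs, a difference that was described and not tested. The lists were chosen with earlier results of these data known, so they are not independent of the data. Each count below reads against the 4.81% of all CpG-poor starts that were members. The lists of granule cell genes, of ion channels and transporters of neurons, and of synaptic proteins together held 22 CpG-poor starts, of which 10 (45.5%) were members. The other 4 neuronal lists, of Purkinje cells, interneurons, forebrain and midbrain neurons, and neuropeptides, held 29, of which 2 (6.90%) were members. The first group holds the neuronal lists with the highest shares (42.9%, 55.6% and 44.4%), and none of these 4 exceeded 25%. The gap between the groups thus follows from that grouping. All 7 neuronal lists together gave 12 of 49 (24.5%). The lists of liver, muscle and heart, gut with pancreas and skin, and germ cells together held 85, of which 1 (1.18%) was a member. The lists of the oligodendrocyte lineage, microglia with blood, vessels, and choroid plexus with meninges together held 81, of which none was a member. A count of 0 allows a share of up to 3.70%. The list of Bergmann glia and astrocytes is in none of these groups and held 12, of which 3 (25%) were members.

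In the granule cell list 3 of 7 CpG-poor starts were members. Cbln3 and Gabra6 are given above. Fat2, an atypical cadherin on the parallel fibres of granule cells, had 4.72 in replicate 1 and 4.92 in replicate 2, at percentiles 86.7 and 93.1. Rbfox3, the splicing factor known as NeuN, had a peak of the shorter list in replicate 2 alone (2.72) and a peak of the longer list in replicate 1 (2.78). The outermost starts of Gabrr2, Ntrk3 and Ppp1r17 had none, and Ppp1r17 is in the Purkinje cell list too. Of the 37 granule cell genes with a CpG-rich start 30 had a peak in both libraries (81.1%), near the 75.5% of all CpG-rich starts. Lists differed at CpG-rich starts too, with 85.2% for synaptic proteins, 80.0% for activity genes and 74.2% for ion channels. Purkinje cells had 59.1%, Bergmann glia and astrocytes 50%, forebrain and midbrain neurons 25.9%, the oligodendrocyte lineage 23.5% and vessels 6.67%. Liver had 1 of 1, and the other lists stood at 40% or lower. The differences between lists were thus not confined to CpG-poor starts.

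In the Purkinje cell list 2 of 8 CpG-poor starts were members. Aldoc, the glycolytic enzyme that marks zebrin stripes of Purkinje cells and is also made by astrocytes, had 5.45 and 4.53 with 7 shared footprints. Pcp4, a calmodulin regulator of Purkinje and other neurons, had 2.80 and 1.83. Plcb3, a phospholipase C, had a peak in replicate 2 alone (1.28), and the Purkinje cell gene Pcp2, the GABA-making enzyme gene Gad1 and Arhgef33 had none. Neither CpG-poor start in the list for unipolar brush cells and interneurons, at Grp and Nos1, had a peak.

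In the list of Bergmann glia and astrocytes 3 of 12 CpG-poor starts were members: Aldoc, Gfap and Fabp7. Gfap, the intermediate filament of astrocytes, had 2.78 and 1.61 with 4 shared footprints. Fabp7, a fatty acid binding protein of Bergmann glia, had 1.71 and 1.21 with 2. Signals of Gfap and Fabp7 lay between percentiles 57.9 and 74.5 of their libraries. Itih3 and S100b had a peak in replicate 2 alone and Sparcl1 in replicate 1 alone, so that 6 of the 12 were open in at least 1 library. A2m, Agt and Aldh1l1 had no peak in the shorter list. In the longer list 7 of the 12 had a peak in both libraries.

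Ion channels and transporters of neurons had 5 members among 9 CpG-poor starts. Whole families read from gene symbols gave lower shares. Potassium channel genes named Kcn had 5 members of 30 CpG-poor starts (16.7%). Solute carriers named Slc had 7 of 110 (6.36%), beside 4.81% of all CpG-poor starts. The high share thus holds for the genes of the list. Kcnj9, the inward rectifier subunit GIRK3, had 4.58 and 7.33, one of the members with more signal in replicate 2. Kcna1, the voltage-gated channel Kv1.1 of axons, had 3.19 and 2.67 at peaks centred 584 and 564 bp past the outermost start. Slc4a10, a bicarbonate transporter, had 2.40 and 1.87. Grm4, a glutamate receptor of parallel fibre terminals, had a peak in replicate 1 alone (2.86), and Cacna1a, Gabrr2 and Gria1 had none.

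Synaptic proteins had 4 members among 9 CpG-poor starts. Sv2a, a protein of all synaptic vesicles, had 3.06 and 1.90. Rph3a, the Rab3 effector rabphilin, had 2.58 and 1.75, and a peak overlapping its window holds a CpG-rich start of the gene. Nlgn3, the X-linked neuroligin, had 1.34 and 0.790, and Cbln3 was the fourth. Camk2a, Camk4 and Dlg4 had none at the outermost start.

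The remaining lists had few peaks of the shorter list at their CpG-poor starts, and the counts in this and the next paragraph are of that list unless the longer one is named. None of 31 microglia, macrophage and blood genes was a member and none had a peak in either library, among them Aif1, Alas2 and C1qa. None of 14 vessel genes had one (Acta2, Atp13a5, Cdh5). None of 18 oligodendrocyte genes was a member, and Adamts4, Bcas1 and Enpp6 were among the 17 with no peak in either library. Of 18 genes of choroid plexus, ependyma and meninges Ptgds, the prostaglandin D synthase, had a peak in replicate 1 alone (2.51), and Aqp1, Ccdc153 and Col1a1 were among the 17 with none. In the longer list peaks in both libraries were found at Col1a1 (0.642 and 0.499) and Ptgds (2.51 and 1.59), at 2 of the oligodendrocyte genes, at 1 of the vessel genes and at none of the microglia genes.

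No peak of the shorter list was found at the 11 CpG-poor starts of forebrain and midbrain neuron genes (Avp, Camk2a, Ddc) or the 13 of neuropeptides, hormones and growth factors (Avp, Cck, Gnrh1). Nor was one found at the 25 of liver (Ahsg, Alb), the 22 of muscle and heart (Acta1, Actc1, Atp2a1) or the 14 of germ cells (Acr, Acrv1, Akap4). Of 24 genes of gut, pancreas, skin and other epithelia, 1 was a member, Sftpc, the lung surfactant protein C, with 3.69 and 3.66, and 23 had no peak, Amy2a5, Cela1 and Cpa1 among them. The longer list held peaks in both libraries at Camk2a (0.385 and 0.278) and Tbr1 (0.871 and 0.809) of the forebrain list and at Apoc3 of liver (0.921 and 0.879), and in replicate 1 alone at Acta1 of muscle (0.621). No activity gene of the list had a CpG-poor outermost start, and 24 of the 30 (80.0%) had a peak in both libraries, near the 75.5% of all CpG-rich starts.

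**Figure D5:**
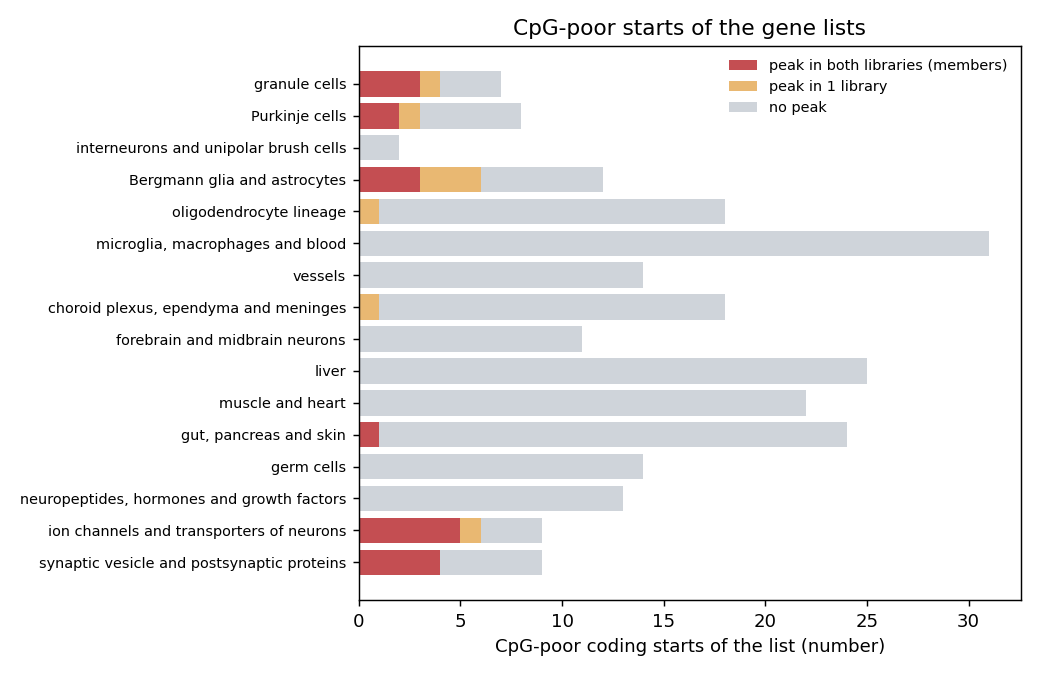
CpG-poor coding starts of each gene list (bars, number of starts), split into those with a peak in both libraries (red), in 1 library (orange) and in none (grey). The lists of granule cells, ion channels and synaptic proteins hold 3 of 7, 5 of 9 and 4 of 9 members, and the lists of microglia, liver and muscle hold none of 31, 25 and 22. The lists were chosen with earlier results of these data known.

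Families read from gene symbols, chosen after the values were seen, differed as widely. Zfp zinc finger genes, many of them KRAB repressors of transposons, had 14 members among 69 CpG-poor starts (20.3%). Cytochrome P450 genes had 6 of 82 (7.32%), with 3 in the Cyp4f family, and glutathione transferases 3 of 12. All 3 CpG-poor Tceal genes of the X chromosome and all 3 C1r complement genes were members. Olfactory receptors had 1 of 1126, Olfr523, and vomeronasal receptors none of 329. Predicted genes named Gm had 20 of 1117 (1.79%). MHC genes named H2 had 3 of 21 (14.3%), H2-Aa and H2-Eb1 among them. Interleukins and chemokines had 6 of 82 (7.32%), Ccl2 and Il6 among them. Immune genes outside the list of microglia, macrophages and blood were thus among the members.

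Members were found on all chromosomes except Y, from 6 each on chromosomes 12 and 13 to 43 on chromosome 2. As a share of a chromosome's CpG-poor starts they ran from 2.22% on chromosome 13 to 8.27% on chromosome 18, with 5.87% on chromosome 2, beside 4.81% in all. On the X, of which a male has a single copy, 22 members had median signals of 1.16 and 0.853 in replicates 1 and 2, against 1.81 and 1.56 for the 366 on autosomes. Open CpG-rich starts differed in the same direction, with 2.51 and 1.85 at 337 on the X, against 5.33 and 3.65 on autosomes. Around members there were on average 4.42 and 4.12 distal peaks within 50 kb, against 1.46 and 1.60 around CpG-poor starts without a peak and 3.10 and 3.31 around open CpG-rich starts. The medians, 2 and 2 at members and at open CpG-rich starts and 0 at CpG-poor starts without a peak, show that the higher mean of members rests on a part of them. Gene density and distance between genes were not matched in this comparison.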

How the data were processed

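DNase-seq of 2 cerebellum libraries was used, with mm10 as the assembly per the labels. Peaks and footprints were called per library; the sources used here name no aligner or caller and give no read numbers. The deposited shorter peak lists held 61776 and 71141 peaks in replicates 1 and 2, with the authors' signal value per peak. Signals under 100 steps were whole multiples (within 0.05) of 0.00714 (replicate 1) and 0.00632 (replicate 2). Should a step be 1 cut, the median member had 246 and 243 cuts, with counting errors of 6.38% and 6.41%. The deposited cut rate files give false discovery rates (q-values, a p-value adjusted by the authors) under 0.05 only, and every footprint carries 0.01.

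CpG ratios, motifs and overlaps (1 bp or more) were computed with Python 3 scripts (numpy, pandas), checked on simulated data, from the GRCm38 sequence and GENCODE mouse release 21. Of 545 list entries 542 matched a coding gene. Members and lists were chosen with earlier results of these data known. Genes named were the 12 highest and 3 lowest members by signal, list members, up to 3 closed genes per list, and extremes of footprints, replicate ratio and CpG cut. Some genes that this rule names are not reported here. No test was made. Alternatives are in the closing section.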

Additional observations from a re-analysis of the deposited data

How the results depend on the processing

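No paired analysis was possible because the samples form 1 group. The number of members, 388, was 237 with a CpG cut of 0.30, 255 with peaks within 100 bp, 599 with the longer peak list, 234 with the upper part of the peaks by signal, and 168 where the start lies inside a peak in both libraries. The mean of the 2 library medians of signal, 1.65, was 1.13 with the longer list, 2.46 with the upper part of the peaks, 2.04 with the start inside a peak, and 1.94 with overlapping peaks summed. The share of members with a shared footprint, 85.1%, was 69.8% with the longer list, 96.6% with the upper part, 90.5% with the start inside a peak, 78.4% where footprints had to overlap by 50% of each, and 77.6% for footprints inside the member's peak. The share with TATAAA, 0.773%, was 0% with peaks within 100 bp and 0% with the start inside a peak, and 1.29% with A or T as the fifth letter, 1.80% with the wider window and 1.67% with the longer list. Leaving out either replicate gave 478 to 523 starts, signals of 1.21 to 1.54, shared footprints at 70.7% to 74.7% and TATAAA at 1.15% to 1.26%. A shared footprint needs both libraries by definition, so its share here is no check of the footprints with 1 library left out. The longer list adds weaker peaks and the upper part removes them by construction; for the other settings the cause was not tested. Settings not named kept the count within 1.5 times, the signal within the SD of the library medians (0.155) and the shares within their Wilson intervals. The 2 alternatives on CpG-rich starts in a peak of the window and on starts inside a peak were chosen after seeing the data. Without the 44 members that had a CpG-rich start in a peak overlapping the window, 344 remained, with a signal of 1.59. With 2 libraries the spread between replicates is poorly known, and weak peaks lie near the calling limit.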
